A study of Mus musculus with 2 samples.

Results

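Reads of Msl1 and Nsl1 ChIP-seq were counted at the genes of p53 and 9 of its regulators and targets in mouse embryonic stem cells (mESCs). The 10 members were Trp53, Mdm2, Mdm4, Cdkn1a, Bax, Bbc3, Pmaip1, Ccng1, Sesn2 and Trp53inp1 listed for their known roles in the pathway. They are 10 of the 21869 protein-coding genes with a measurable transcription start site (TSS). Msl1 is a subunit of the MSL complex and Nsl1 of the NSL complex, and both complexes hold the histone acetyltransferase Mof. The study asked which genes each complex occupies, and sequenced 1 library for each antibody. Both libraries came from wt mESCs that the labels give as E14, passage P26, on the 129P2/OlaHsd background, with no treatment named. These were cultured cells of 1 line, taken off their feeder cells for a passage before use according to the methods.

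p53, the product of Trp53, is a transcription factor that accumulates when DNA is damaged and switches on genes that stop the cell cycle, start apoptosis or repair damage. Mdm2 marks p53 for degradation and is itself a p53 target, and Mdm4 holds p53 inactive at its target genes. Embryonic stem cells are known for a high level of p53 protein and a short first gap phase.

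In all, 23888517 Msl1 reads of 50 bases were deposited, and 26084098 Nsl1 reads of 36 bases. Repeats of a position and strand were dropped, which left 19483142 and 24883001 nuclear reads. A ratio is the number of reads within 500 bases of a TSS over the local level, which is the number per kb that the library shows 5 to 50 kb away in either direction. The main TSS of a gene is the most common start in the group of nearby starts with the most protein-coding transcripts. Brackets hold exact 95% Poisson intervals of the counted reads, or binomial ones for ratios between libraries, which cover counting error only. The Poisson intervals take the local level as known and leave out its own counting error. With 1 library for each antibody there was no replicate and no test. No Input library was used here. The libraries also differed in library kit and read length, so a difference between them cannot be told apart from these. At 6 mESC marker genes the ratio ran from 1.53 to 4.85 for Msl1 and from 0.590 to 2.35 for Nsl1, and at 5 fibroblast genes from 1.08 to 4.63 and from 0.916 to 2.54, so reads at TSSs did not set the cell types apart.

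Msl1 stood at 3 times the local level or more at 4 of the 10 members, Mdm2, Bbc3, Sesn2 and Trp53inp1, and Nsl1 at 3 others, Mdm4, Bax and Ccng1. Across all protein-coding TSSs 23.5% reached this level for Msl1 and 24.3% for Nsl1. No member reached it in both libraries, which 11.8% of all TSSs did. Trp53, Cdkn1a and Pmaip1 reached it in neither, and nor did 13976 of the 21869 TSSs. The median ratio over the members was 2.66 for Msl1 and 2.26 for Nsl1, against 1.86 and 1.72 over all TSSs. The counting interval lay above 1 at 9 members in each library, all but Cdkn1a, and at 53.6% of all TSSs for Msl1 and 51.7% for Nsl1. The counts at 3 times the local level given above rest on point values. The interval lay wholly above 3 at Bbc3 and Trp53inp1 for Msl1 and at Bax for Nsl1, and at 8.13% and 14.9% of all TSSs. It held 3 at 7 members for Msl1 and at 5 for Nsl1, which could not be placed above or below this level at this depth. Mdm2 and Sesn2 for Msl1, Mdm4 and Ccng1 for Nsl1, and Trp53 and Pmaip1 in both libraries were among these. With 10 members, 4 and 3 genes are too few to be read as more than the shares of all TSSs. Likewise, the lack of a member at this level in both libraries is not to be read as less than 11.8%.

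**Figure D1:**
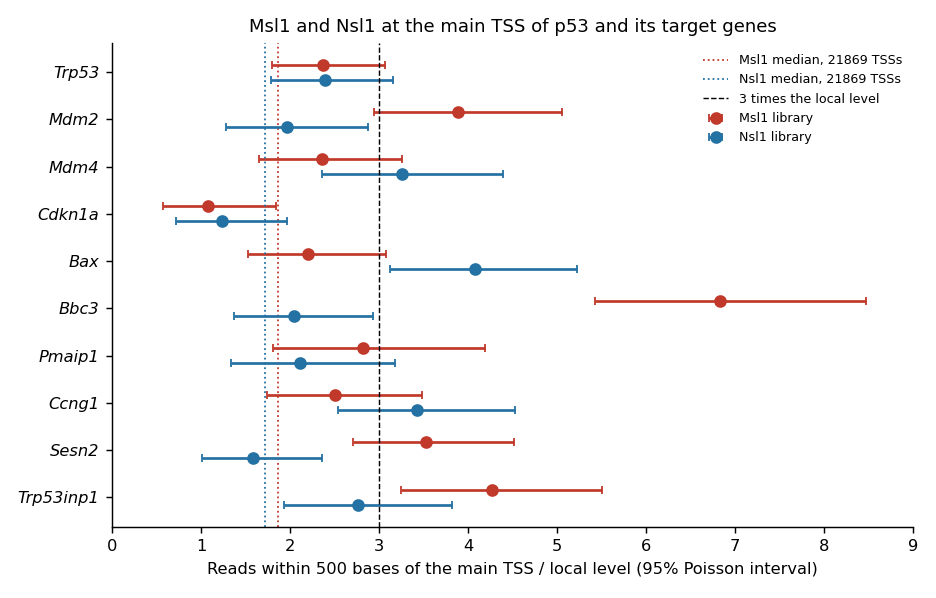
Reads within 500 bases of the main TSS over the local level for the 10 members, Msl1 in red and Nsl1 in blue. Points are the single library of each antibody, bars are exact 95% Poisson intervals, dotted lines are the medians over all 21869 TSSs (1.86 and 1.72) and the dashed line is 3 times the local level. Bbc3 has the highest Msl1 ratio (6.83) and Bax the highest Nsl1 ratio (4.08).

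Trp53 (ENSMUSG00000059552.6) starts at position 69393861 of chromosome 11 on mm9, on the + strand. Within 500 bases lay 57 Msl1 reads, at 2.37 times their level (1.80 to 3.07), and 51 Nsl1 reads, 2.40 times the level (1.79 to 3.15). Over the local level, the gene of p53 itself was thus at a like ratio in both libraries. The Nsl1 interval lay above the median of all TSSs, and the Msl1 interval held it. In each library the local level of Trp53 was the highest of the members. Over the level of the whole genome, Trp53 stood at 7.49 for Msl1 and 5.24 for Nsl1. The TSS of Wrap53, known as an antisense gene of Trp53, lies at -104 bases and points the other way. The windows of both genes overlap, and the reads at their shared promoter belong to both. At the TSS of Wrap53 the ratios were 2.04 for Msl1 and 2.40 for Nsl1. Both libraries had their maxima on the Trp53 side. In bins of 250 bases, Nsl1 was highest directly downstream of the Trp53 TSS, with 20 reads and 3.76 times the level (2.30 to 5.81). Msl1 was highest 500 to 750 bases downstream, in the first intron, with 38 reads and 6.32 times the level (4.47 to 8.68). On the Wrap53 side, Nsl1 had 17 reads from 1250 to 1000 bases upstream, 3.20 times the level (1.86 to 5.12). Msl1 had 22 reads from 1500 to 1250 bases upstream, 3.66 times the level (2.29 to 5.54). In each library this interval overlapped that of the highest bin. Trp53 has 5 annotated TSSs. At the TSS 6532 bases downstream the ratios were 1.25 for Msl1 and 0.713 for Nsl1, and at the one 8336 bases downstream they were 1.45 and 0.902.

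Mdm2 (ENSMUSG00000020184.8), the p53 ligase, starts at position 117147814 of chromosome 10, on the - strand. Its 56 Msl1 reads were 3.89 times the level (2.94 to 5.05) and its 26 Nsl1 reads 1.96 times the level (1.28 to 2.87). The intervals of both ratios did not overlap, by a narrow margin. Mdm2 has a second, internal promoter known to respond to p53, and 3 of its 8 annotated TSSs lie 466 to 736 bases downstream of the first. Around the TSS at 680 bases, that of Mdm2-006, the Msl1 ratio was 5.50 (4.35 to 6.86) and the Nsl1 ratio 1.75 (1.11 to 2.63). Nsl1 too had its highest ratio of this gene at an internal start, 2.37 (1.61 to 3.36) at Mdm2-005, 466 bases downstream, where Msl1 stood at 5.19. Its highest bin, from 500 to 750 bases, held 11 reads, 3.32 times the level. At Mdm2-003, 736 bases downstream, the ratios were 4.58 and 1.68. At these internal starts the Msl1 intervals lay above those of Nsl1. The windows of these 3 starts overlap each other and that of the main TSS, and so share reads. In each library their intervals overlapped that of the main TSS. At the most distal TSS, that of Mdm2-009 at 19238 bases, the ratios were 1.60 for Msl1 (1.03 to 2.38) and 0.824 for Nsl1 (0.411 to 1.47), and the intervals overlapped. By point values, the Msl1 reads formed a pair of maxima. The bin from 0 to 250 bases held 35 reads, 9.73 times the level, and the bin from 1250 to 1500 bases held 22 reads, 6.12 times the level. The bins that hold the internal starts lay between these maxima, with lower point values. From 250 to 500 bases Msl1 stood at 2.78 times the level (1.33 to 5.11). From 500 to 750 bases it stood at 3.89 times the level (2.13 to 6.53). These intervals lay below that of the first maximum (6.78 to 13.5) and overlapped that of the second (3.83 to 9.26). The 250 bases upstream of the TSS held 1 Msl1 read.

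Mdm4 (ENSMUSG00000054387.6), the relative of Mdm2 that inhibits p53 without degrading it, starts at position 134921925 of chromosome 1, on the - strand. It held 36 Msl1 reads, 2.36 times the level (1.65 to 3.26), and 43 Nsl1 reads, 3.26 times the level (2.36 to 4.39). Of both p53 inhibitors, Mdm2 had the higher Msl1 and Mdm4 the higher Nsl1 value, but the intervals of Mdm2 and Mdm4 overlapped in each library. Reads at Mdm4 were narrow in both libraries. The Nsl1 maximum lay in the bin of 250 bases upstream of the TSS, with 21 reads and 6.37 times the level, and the Msl1 maximum in the first bin downstream, with 22 reads and 5.76 times the level. From 500 to 2000 bases downstream, reads per kb fell to 0.333 of those at the TSS for Msl1 and to 0.233 for Nsl1.

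**Figure D2:**
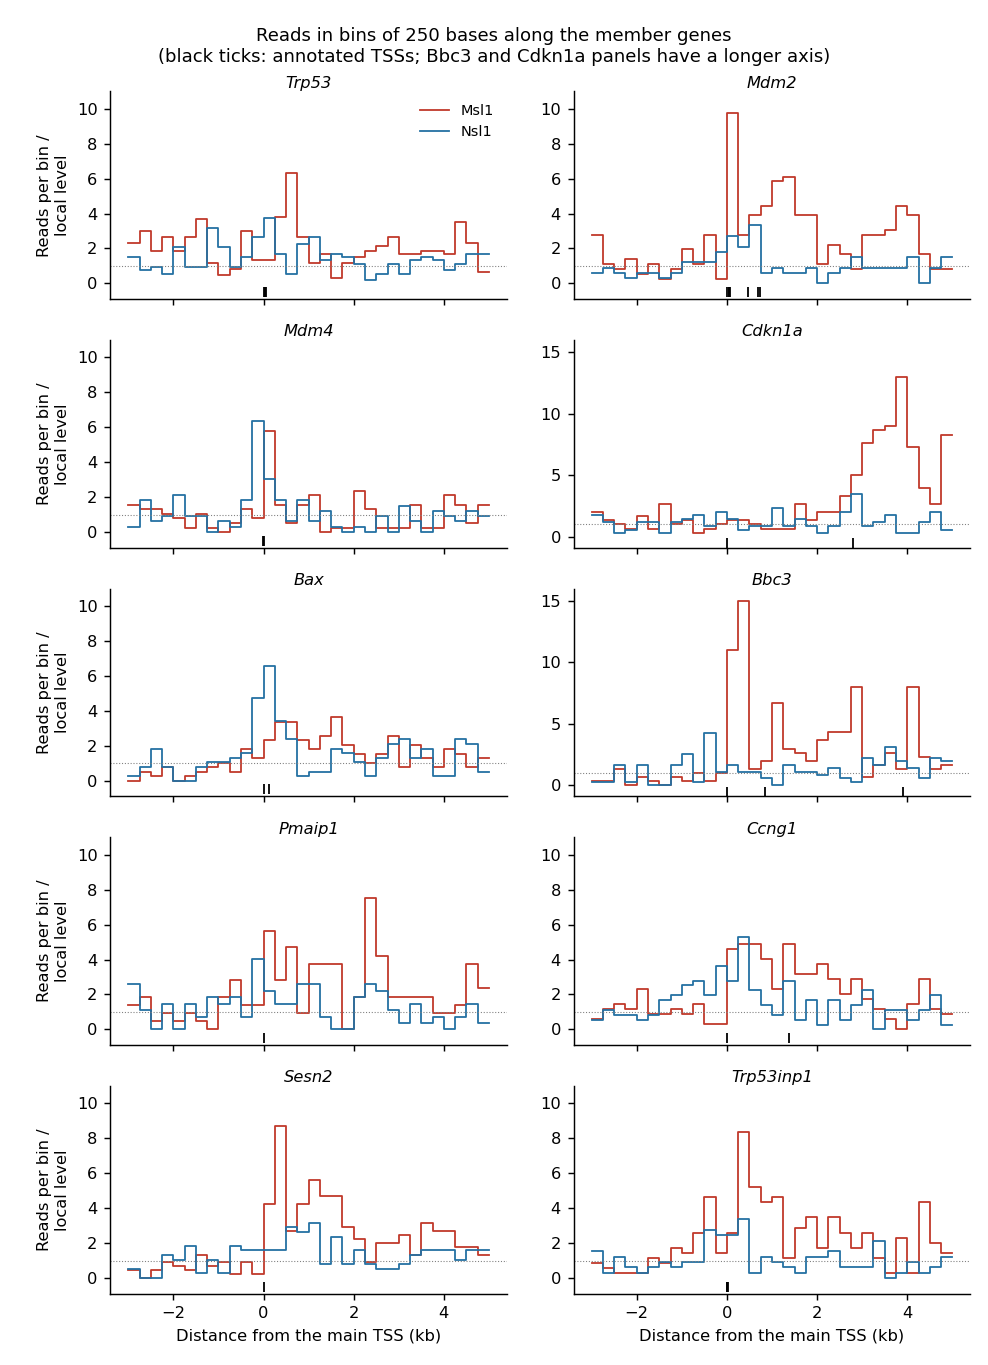
Reads in bins of 250 bases over the local level, from 3 kb upstream to 5 kb downstream of the main TSS of each member, in the direction of the gene, Msl1 in red and Nsl1 in blue. Black ticks mark annotated TSSs, and the dotted line is the local level. Msl1 is highest just inside Bbc3, Mdm2, Sesn2 and Trp53inp1 and downstream of the second Cdkn1a TSS, and Nsl1 at the TSSs of Bax and Mdm4.

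Cdkn1a (ENSMUSG00000023067.7), which encodes the cyclin-dependent kinase inhibitor p21, has 3 annotated TSSs with 1 transcript each on the + strand of chromosome 17, and its values depend on which is taken. The fixed rule takes the most upstream of equals, that of Cdkn1a-003 at position 29227924. There 13 Msl1 reads were found, 1.08 times the level (0.575 to 1.85), and 17 Nsl1 reads, 1.23 times the level (0.717 to 1.97). Neither could be told from the local level at this depth. At the TSS of Cdkn1a-001, which lies 2793 bases downstream at position 29230717, 54 Msl1 reads were found, 4.73 times the level (3.55 to 6.17). Nsl1 had 27 reads there, 1.97 times the level (1.30 to 2.86). Had this TSS been the main one, Cdkn1a would have been among the members at 3 times the Msl1 level. At Cdkn1a-002, 7228 bases from the first TSS, the ratios were 2.56 for Msl1 and 1.56 for Nsl1.

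The Msl1 reads of Cdkn1a were dense from Cdkn1a-001 on. Counted from Cdkn1a-001, the 6 bins from 0 to 1500 bases stood at 6.65 to 12.3 times the level. The highest, from 1000 to 1250 bases in an intron, held 35 Msl1 reads (8.54 to 17.0 times the level) and 0 Nsl1 reads (0 to 1.08 times the level). Within 2 kb of Cdkn1a-001, Nsl1 was highest in the 250 bases upstream, with 11 reads and 3.21 times the level. Within 2 kb, Msl1 reads over Nsl1 reads, per read of each library, came to 3.92 (2.98 to 5.23) at Cdkn1a-001 and 1.10 (0.760 to 1.60) at Cdkn1a-003.

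Ccng1 (ENSMUSG00000020326.7), the gene of cyclin G, starts at position 40568813 of chromosome 11, on the - strand. It held 35 Msl1 reads, 2.51 times the level (1.75 to 3.49), and 49 Nsl1 reads, 3.43 times the level (2.54 to 4.53). These intervals overlapped. At the TSS of Ccng1-002, 1373 bases inside the gene, the Msl1 ratio was 3.56 (2.64 to 4.70) and the Nsl1 ratio 1.31 (0.787 to 2.04), with intervals apart. Nsl1 was highest from 250 to 500 bases, at 5.31 times the level, and Msl1 held 17 reads, 4.87 times the level, in each of 3 bins that start at 250, 500 and 1250 bases.

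**Figure D3:**
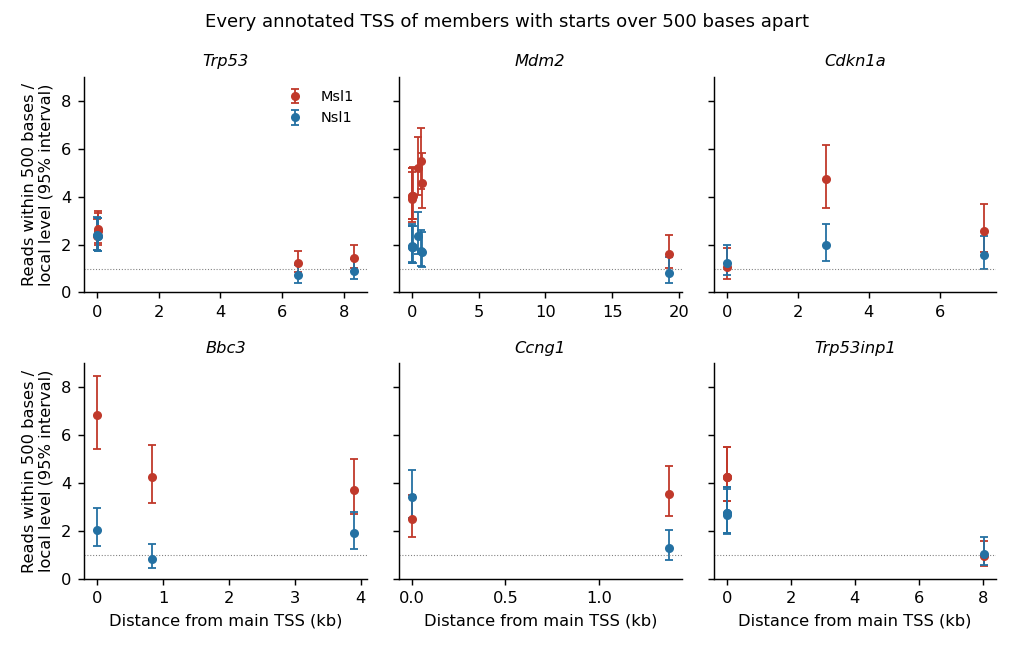
Ratio within 500 bases of every annotated TSS for the 6 members with starts more than 500 bases apart, against the distance from the main TSS in kb, Msl1 in red and Nsl1 in blue with exact 95% Poisson intervals. At Cdkn1a the Msl1 ratio is 4.73 at the second TSS and 1.08 at the first, and at Ccng1 the intervals of the libraries overlap at the main TSS and lie apart at the other, where Msl1 is higher.

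Among the apoptosis genes, Bbc3 and Bax had the highest ratios of the members, each in another library. Bbc3 (ENSMUSG00000002083.6), which encodes the BH3-only protein Puma, starts at position 16894965 of chromosome 7, on the + strand. It held 82 Msl1 reads, 6.83 times the level (5.43 to 8.47), and 29 Nsl1 reads, 2.05 times the level (1.37 to 2.94). This Msl1 ratio was higher than that of 99.3% of all TSSs. The Msl1 reads lay inside the gene, with 33 reads in the first 250 bases and 45 in the next, 14.99 times the level (10.9 to 20.1). The 250 bases upstream held 3 Msl1 reads. The Nsl1 maximum lay upstream, from 500 to 250 bases before the TSS, with 15 reads and 4.23 times the level. At Bbc3-002, 839 bases downstream, the ratios were 4.27 for Msl1 and 0.840 for Nsl1, and at Bbc3-003, 3901 bases downstream, 3.71 and 1.91.

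Bax (ENSMUSG00000003873.9), which opens the outer mitochondrial membrane in apoptosis, starts at position 52722268 of chromosome 7, on the - strand. It held 62 Nsl1 reads, 4.08 times the level (3.13 to 5.23), and 34 Msl1 reads, 2.20 times the level (1.52 to 3.07). Among the members, Bax was the one whose Nsl1 interval lay above its Msl1 interval, by a narrow margin. Per uniquely mappable base these intervals overlapped, at 2.88 to 4.82 for Nsl1 and 1.45 to 2.93 for Msl1. Nsl1 was highest in the first 250 bases, with 25 reads and 6.57 times the level, and fell to 0.290 of the TSS level further downstream. Msl1 was highest from 1500 to 1750 bases, at 3.62 times the level (1.98 to 6.08) with 14 reads. The bins from 250 to 500 and from 500 to 750 bases held 13 Msl1 reads each, so no single maximum stood out. Pmaip1 (ENSMUSG00000024521.7), which encodes the BH3-only protein Noxa, starts at position 66618258 of chromosome 18, on the + strand. Of the main TSSs it had the lowest counts after that of Cdkn1a, with 24 Msl1 reads, 2.82 times the level (1.81 to 4.20), and 23 Nsl1 reads, 2.12 times the level (1.34 to 3.18).

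Sesn2 and Trp53inp1 act in stress and metabolism. Sesn2 (ENSMUSG00000028893.8), a stress protein that restrains mTOR signalling, starts at position 132066416 of chromosome 4, on the - strand. It held 63 Msl1 reads, 3.53 times the level (2.71 to 4.51), and 24 Nsl1 reads, 1.59 times the level (1.02 to 2.36). Both intervals lay apart. Its highest Msl1 bin, from 250 to 500 bases, held 39 reads, 8.73 times the level, and the bin upstream of the TSS held 1 read. A transcript of unknown function on the same strand, Gm12981, starts 852 bases inside Sesn2. Trp53inp1 (ENSMUSG00000028211.5), a nuclear cofactor of p53, starts at position 11083578 of chromosome 4, on the + strand. It held 59 Msl1 reads, 4.27 times the level (3.25 to 5.50), and 36 Nsl1 reads, 2.76 times the level (1.93 to 3.82). Here the intervals overlapped, although both values were over the medians of all TSSs. The TSS 8028 bases inside the gene stood at the local level, with ratios of 0.950 and 1.04.

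In order of their Msl1 ratios, Bbc3 was followed by Trp53inp1, Mdm2, Sesn2, Pmaip1, Ccng1, Trp53, Mdm4, Bax and Cdkn1a. Each interval overlapped that of the next gene in this order. For Nsl1 the order was Bax, Ccng1, Mdm4, Trp53inp1, Trp53, Pmaip1, Bbc3, Mdm2, Sesn2 and Cdkn1a, again with overlap between neighbours. All 31 annotated TSSs together ranged from 0.950 to 6.83 for Msl1 and from 0.713 to 4.27 for Nsl1.

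The members' Msl1 reads lay mostly downstream of their TSSs. Within 2 kb, the highest Msl1 bin was downstream of the main TSS at 9 of 10 members and at 63.3% of all TSSs. At Cdkn1a an upstream and a downstream bin tied with 8 reads each. The highest Nsl1 bin was downstream at 7 members and at 46.5% of all TSSs. Summed over the members, Msl1 rose from 0.896 times the level in the 250 bases upstream of the TSS to 4.53 times in the first bin downstream and 5.21 times in the second. Over all TSSs the same bins stood at 1.38, 2.49 and 3.03 times the level. For Nsl1 the members stood at 2.99, 2.91 and 2.25 times the level, close to the 3.03, 3.12 and 2.02 of all TSSs. The median of the downstream ratio, reads per kb from 500 to 2000 bases over those within 500 bases, was 1.04 for Msl1 and 0.521 for Nsl1 over the members, and 0.833 and 0.667 over all TSSs. In the gene bodies, from 2 kb downstream of the TSS to the gene end, Msl1 stood at a median of 1.59 times the level, with intervals above 1 at 9 of 10 members and 36.8% of all genes. Nsl1 stood at 1.02 times the level there, with intervals above 1 at 2 members, Cdkn1a and Bbc3, and at 18.1% of all genes. Over 16972 genes the body medians were 1.06 for Msl1 and 0.996 for Nsl1. The local level takes in the gene body beyond 5 kb, so long genes were measured partly against their own bodies. Gene lengths were not matched between the members and all genes. For Msl1, Mdm4 with the longest body (33.5 kb) stood at 1.08, and Bax with the shortest (3.20 kb) at 1.39. From its first TSS Cdkn1a had an Msl1 body ratio of 3.51, but that body takes in the reads at Cdkn1a-001. Counted from Cdkn1a-001, but still over the level of the first TSS, the ratio was 2.23. Its interval overlapped those of Bbc3 at 2.39 and Pmaip1 at 2.30, so these were not ranked.

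The sequences that held the highest Msl1 bins outside exons are given for 4 members, from mm9 and in the direction of the gene, with each CpG in capitals. They lie in introns at chr7:16895215-16895464 (Bbc3, + strand), chr17:29231717-29231966 (Cdkn1a, + strand), chr4:11083828-11084077 (Trp53inp1, + strand) and chr11:69394361-69394610 (Trp53, + strand).
Bbc3: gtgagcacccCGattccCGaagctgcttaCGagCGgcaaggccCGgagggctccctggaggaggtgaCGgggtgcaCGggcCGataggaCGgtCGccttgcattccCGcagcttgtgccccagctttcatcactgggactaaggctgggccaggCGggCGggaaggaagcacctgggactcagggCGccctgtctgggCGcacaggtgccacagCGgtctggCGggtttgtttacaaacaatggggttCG
Cdkn1a: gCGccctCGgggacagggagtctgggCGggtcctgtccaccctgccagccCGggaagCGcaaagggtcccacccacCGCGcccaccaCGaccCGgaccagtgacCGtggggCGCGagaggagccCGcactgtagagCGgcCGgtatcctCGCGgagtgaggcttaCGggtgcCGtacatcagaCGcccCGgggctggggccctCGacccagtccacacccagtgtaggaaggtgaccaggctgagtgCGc
Trp53inp1: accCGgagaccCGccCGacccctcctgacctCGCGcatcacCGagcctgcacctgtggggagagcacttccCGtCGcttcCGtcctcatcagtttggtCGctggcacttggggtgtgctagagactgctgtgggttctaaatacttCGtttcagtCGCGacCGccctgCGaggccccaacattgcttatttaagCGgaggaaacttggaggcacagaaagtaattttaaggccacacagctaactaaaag
Trp53: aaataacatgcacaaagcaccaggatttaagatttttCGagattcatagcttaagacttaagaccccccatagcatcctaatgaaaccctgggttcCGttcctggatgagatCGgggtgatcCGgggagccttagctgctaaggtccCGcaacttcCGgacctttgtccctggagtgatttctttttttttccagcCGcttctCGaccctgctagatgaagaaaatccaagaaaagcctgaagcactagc
The 250 bases hold 23 CpGs at Cdkn1a, 18 at Bbc3, 16 at Trp53inp1 and 8 at Trp53. Their Msl1 ratios were 12.3, 14.99, 8.39 and 6.32, which is not the same order. These bins were picked for their Msl1 reads, with no other bins beside them, so a link with CpGs was not tested. The G and C content was 71.2% at Cdkn1a, 65.6% at Bbc3, 56.4% at Trp53inp1 and 47.2% at Trp53.

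The 200 bases upstream of the first annotated start are given for the 3 members at 3 times the Nsl1 level, again in the direction of the gene with CpGs in capitals. They lie outside annotated transcripts at chr1:134921944-134922143 (Mdm4), chr7:52722269-52722468 (Bax) and chr11:40568814-40569013 (Ccng1), all on the - strand of mm9.
Mdm4: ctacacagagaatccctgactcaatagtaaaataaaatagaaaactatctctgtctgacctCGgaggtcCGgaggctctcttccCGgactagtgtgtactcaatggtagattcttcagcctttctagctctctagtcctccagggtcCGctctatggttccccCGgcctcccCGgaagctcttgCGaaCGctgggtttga
Bax: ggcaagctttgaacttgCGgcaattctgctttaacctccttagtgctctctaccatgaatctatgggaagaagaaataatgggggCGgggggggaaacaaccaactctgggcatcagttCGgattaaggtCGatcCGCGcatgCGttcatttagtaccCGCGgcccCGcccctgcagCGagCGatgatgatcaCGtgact
Ccng1: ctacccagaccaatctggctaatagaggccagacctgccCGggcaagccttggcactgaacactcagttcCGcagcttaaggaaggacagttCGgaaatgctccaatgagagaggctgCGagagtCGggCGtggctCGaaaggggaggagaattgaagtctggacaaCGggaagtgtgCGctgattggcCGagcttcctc
These stretches hold 8, 13 and 10 CpGs and had Nsl1 at 6.07, 4.93 and 3.15 times the level. The observed over expected CpG number in the 1000 bases around the main TSS had a median of 0.682 over the members and 0.566 over all TSSs. It was lowest at Cdkn1a-003, at 0.126, where both libraries stood at the local level. At Bbc3, with the highest Msl1 ratio, it was 0.658, and at Bax, with the highest Nsl1 ratio, 0.706. A link between this number and the reads was not tested.

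p53 binds pairs of decamers, and the p53 consensus element of 20 bases, with no spacer and at most 2 mismatches outside the fixed core letters, was searched on both strands within 3 kb of the main TSS. A match was found at 4 of the 10 members, Bax, Ccng1, Cdkn1a and Pmaip1, with 2 at Ccng1, and at 6.04% of all protein-coding TSSs. A match is a stretch of letters and not a shown binding site. Most members were listed as p53 targets, so their count of matches is not independent of the choice of genes. In the direction of the gene, with the core of each decamer in capitals, matches at 3 of these genes were at chr7:52721944-52721963 (Bax, - strand), chr11:40568438-40568457 (Ccng1, intron, - strand), chr11:40568964-40568983 (Ccng1, upstream, - strand) and chr17:29227873-29227892 (Cdkn1a, + strand).
Bax: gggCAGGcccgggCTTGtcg
Ccng1 intron: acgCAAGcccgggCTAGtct
Ccng1 upstream: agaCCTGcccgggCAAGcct
Cdkn1a: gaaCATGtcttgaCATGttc
The Cdkn1a match lies at -41 bases from Cdkn1a-003 and at -2834 bases from Cdkn1a-001. Within 500 bases of it the Msl1 ratio was 0.997 (0.515 to 1.74) and the Nsl1 ratio 1.23 (0.717 to 1.97), both at the local level, while the Msl1 reads of Cdkn1a lay at and after Cdkn1a-001. At the other 4 matches both libraries stood above the level, but these lie between -164 and 365 bases from a main TSS and their windows share reads with it. Around the match in the Ccng1 intron the ratios were 4.08 for Msl1 and 3.15 for Nsl1, and around the one upstream of Ccng1 1.86 and 3.22. At Bax, 314 bases inside the gene, they were 2.39 and 4.08, and at Pmaip1, at -164 bases, 3.29 and 2.12.

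The libraries were also compared directly, with counts not divided by the local level. The level of the region thus enters this ratio. The number of reads within 2 kb of the main TSS, per read of each library, gave an Msl1 to Nsl1 ratio with a median of 1.56 over the members and 1.28 over all TSSs whose reads reached 100. That median was passed at 8 of 10 members and at 49.9% of these TSSs, and an interval wholly above it was found at 5 members and at 22% of these TSSs. Mdm2 had 178 Msl1 and 64 Nsl1 reads, a ratio of 3.55 (2.66 to 4.80) that was higher than at 99.4% of TSSs. Trp53inp1 followed with 162 and 65 reads and a ratio of 3.18 (2.37 to 4.31). Bbc3 stood at 2.59 (1.94 to 3.49), Sesn2 at 2.57 (2.0 to 3.32) and Trp53 at 1.62 (1.31 to 2.01). Over the local level, Trp53 within 2 kb stood at 2.09 (1.81 to 2.40) for Msl1 and 1.86 (1.58 to 2.17) for Nsl1. These 2 intervals overlapped. At Pmaip1, Ccng1 and Bax the ratios of 1.50, 1.48 and 1.30 had intervals that held the median of all TSSs, as did 1.12 at Mdm4 and 1.10 at Cdkn1a. Within 500 bases in place of 2 kb, Bax stood at 0.700, Ccng1 at 0.912 and Trp53inp1 at 2.09, while Bbc3 stood at 3.61 and Sesn2 at 3.35, and 6 members were over the median of that window, 1.08.

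**Figure D4:**
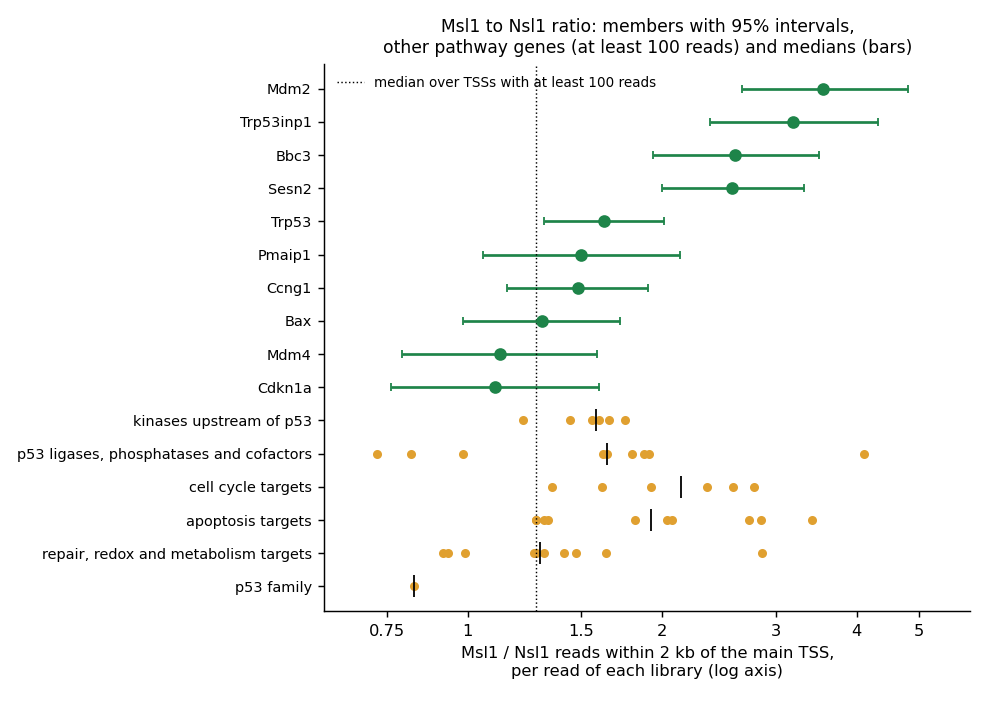
Msl1 reads over Nsl1 reads within 2 kb of the main TSS, per read of each library, on a log axis, for the members (green, with exact 95% binomial intervals) and for further pathway genes with at least 100 reads (orange, with a black bar at the median of each list). The dotted line is the median over all TSSs with at least 100 reads. Mdm2, Trp53inp1, Bbc3, Sesn2 and Trp53 have intervals above it. Counts are not divided by the local level.

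Of 46 further genes of the pathway, 21 stood at 3 times the local level or more for Msl1 and 19 for Nsl1, with medians of 2.95 and 2.64. These are 45.7% and 41.3% of the list, against 23.5% and 24.3% of all TSSs. Both libraries reached it at 7 of these 46 genes and at 11.8% of all TSSs. Neither did at 13 of these genes and at 13976 of the 21869 TSSs. The cell cycle targets (5 of 6 for Msl1, 1 of 6 for Nsl1) and those that act in apoptosis (7 and 2 of 12) had more genes at this level in the Msl1 library. The kinases upstream of p53 (2 and 5 of 6) and the targets in repair, redox and metabolism (3 and 6 of 11) had more in the Nsl1 library. The ligases, phosphatases and cofactors of p53 had 4 and 5 of 9, and both relatives of p53, Trp63 and Trp73, had none. With lists of 2 to 12 genes, these counts are a description. Within 2 kb, the median Msl1 to Nsl1 ratio was 2.14 for the cell cycle targets, 1.92 for the apoptosis targets, 1.64 for the ligases, phosphatases and cofactors, 1.58 for the kinases and 1.29 for the repair, redox and metabolism targets, against 1.28 over all TSSs. Trp73, the 1 relative of p53 with at least 100 reads, named after its values were seen, stood at 0.826.

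The highest Msl1 ratios of the further genes were 8.56 at Cdkn2a (6.46 to 11.1), whose Arf product inhibits Mdm2, 5.84 at the kinase gene Plk2 (4.22 to 7.86) and 5.39 at Zmat3 (4.09 to 6.99), which encodes a zinc finger protein. The lowest were 0.877 at Polk, 1.23 at Trp63 and 1.24 at Lrdd. The highest Nsl1 ratios were 7.99 at the p53 ligase gene Rchy1 (6.39 to 9.86), 6.89 at the acetyltransferase gene Kat5 (5.64 to 8.34) and 6.27 at Prkdc (4.83 to 8.01), the catalytic subunit of a DNA-dependent kinase. The lowest were 0.642 at Usp7, which removes ubiquitin from p53 and Mdm2, 0.989 at the death receptor gene Tnfrsf10b and 1.00 at Polk. Bbc3, the highest member, lay between Cdkn2a and Plk2 in its Msl1 ratio, and Bax, the highest member for Nsl1, lay below all 3 of the highest further genes.

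**Figure D5:**
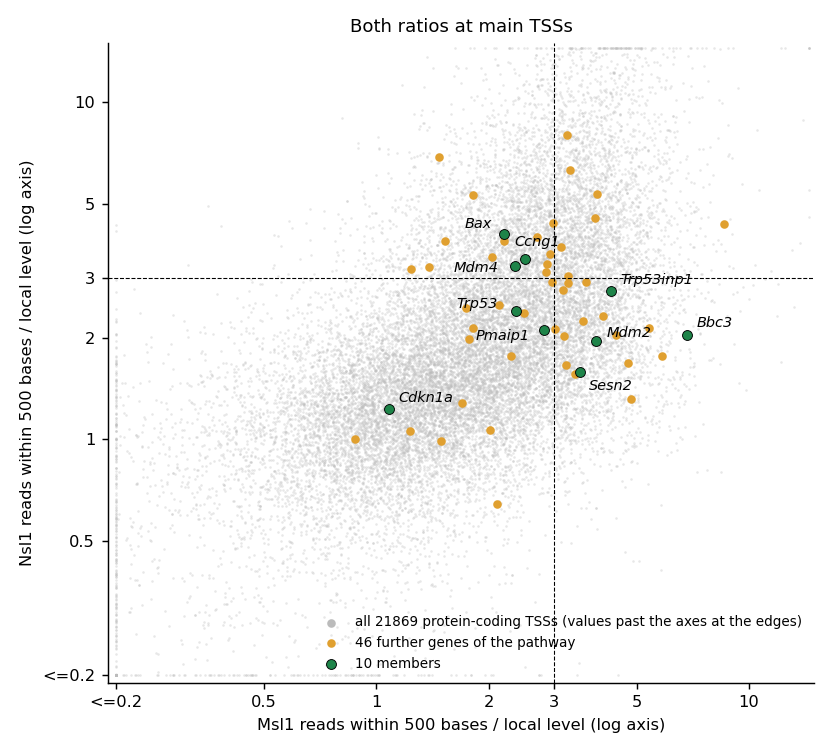
Msl1 ratio against Nsl1 ratio at the main TSS, both on log axes, for all 21869 protein-coding TSSs (grey), 46 further pathway genes (orange) and the 10 members (green, named). Values past the axes are drawn at the edges, and dashed lines mark 3 times the local level. No member lies by its point values in the upper right field, where both ratios are at least 3, and 11.8% of all TSSs do. At Trp53, Mdm4, Pmaip1 and Ccng1 the intervals of both libraries hold 3.

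A list chosen for comparison, 40 DNA damage repair genes, had medians of 3.06 for Msl1 and 4.18 for Nsl1. Of these genes 22 stood at 3 times the Msl1 level, 33 at 3 times the Nsl1 level and 18 at both. Its median Msl1 to Nsl1 ratio was 1.08 and that of the members 1.56. Olfactory and vomeronasal receptor genes, 1374 genes of sensory neurons, had medians of 1.06 and 1.20, and 20 and 19 of them reached 3 times the level.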

How the data were processed

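The authors sequenced single reads, aligned them to mm9 with Bowtie 0.12.7 after base calling with CASAVA 1.8.2 per the labels, and kept unique reads. They deposited the position and strand of each read as a count of 1 read per line. A mapping score, deposited as 255 throughout, was not used. Mitochondrial reads (0.145% of Msl1, 0.0473% of Nsl1) and repeats of a position and strand were dropped here, and reads were shifted to fragment centres (fragments of 213 bases for Msl1, 134 for Nsl1), taken from the strand cross-correlation on chromosomes 16, 18 and 19. TSSs came from GENCODE vM1, another release than the study's. The main TSS was the most common start in the cluster (starts within 500 bases) with the most protein-coding transcripts, ties going to the most upstream. Of 22359 genes, 490 with under 45 reads from 5 to 50 kb in a library were left out.

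Named were all members with every TSS (those within 500 bases of the main one mostly by their range), genes starting within 1 kb of them, and the 3 highest and 3 lowest further genes in each library; Trp73 was named beyond this rule. The members and lists were chosen with earlier results of these data known. Counts were made with Python 3.11.15, numpy 2.4.6, pandas 2.3.3, scipy 1.17.1 and numba 0.67.0, sequences read with pysam 0.24.0 and samtools 1.23.1, and plots drawn with matplotlib 3.10.9. The scripts were tested on simulated data. With 8 to 105 reads at the main TSSs of the members and further genes named, only differences well over counting error can be seen. Alternatives were all reads kept, no shift or 100 bases, other TSSs, windows, levels and thresholds, and division by uniquely mappable bases.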

Additional observations from a re-analysis of the deposited data

How the results depend on the processing

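With the level of the whole genome in place of the local one, 9 members stood at 3 times the level for Msl1 and 5 for Nsl1, with medians of 6.04 and 3.34, while 42.7% and 33% of all TSSs did. At 2 times the local level the counts were 9 and 7 (all TSSs 46.1% and 41.9%), and with an interval above 1 as the threshold they were 9 and 9 (53.6% and 51.7%). With a window of 1000 bases on each side 3 members stood at 3 times the level for Msl1 (18.3% of all TSSs), without Sesn2 at 2.77, and 0 for Nsl1 (13.7%). Of 360 values of single members under the alternatives, 27 left the counting interval, 14 of 20 with the genome level and 5 of 20 with the window of 1000 bases. Counted from 1000 to 2000 bases, the downstream ratio of Trp53 for Msl1 was 0.456 in place of 0.936. Within 500 bases in place of 2 kb, 5 of 10 Msl1 to Nsl1 ratios did so, with Bax at 0.700, Ccng1 at 0.912, Trp53inp1 at 2.09, Sesn2 at 3.35 and Bbc3 at 3.61. With the TSS of the lowest numbered transcript, an alternative added after the data were seen, Cdkn1a moved to 4.73 for Msl1 and to an Msl1 to Nsl1 ratio of 3.92. Keeping all reads, changing the shift or dividing by uniquely mappable bases moved no single member value out of its interval. With all reads kept, however, Pmaip1 reached 3.22 for Msl1, which put 5 members at 3 times the level (23.6% of all TSSs). Per mappable base Ccng1 fell to 2.96 for Nsl1, which left 2 members there, and the share of all TSSs was not counted. The cause of the other changes was not tested. No paired analysis was possible because each antibody had 1 library.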

Other observations

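Further stretches of Msl1 reads lay inside the members, over 2 kb downstream of the start they are counted from, in bins chosen after their values were seen. At Pmaip1, the bin from 2250 to 2500 bases downstream held 16 Msl1 reads, 7.52 times the local level (4.30 to 12.2). At Bbc3, the bins from 2750 to 3000 and from 4000 to 4250 bases each held 24 Msl1 reads, 7.99 times the level (5.12 to 11.9), and the latter lies just after the TSS of Bbc3-003. At Cdkn1a, the bin from 2000 to 2250 bases after Cdkn1a-001 held 27 Msl1 reads, 9.46 times the level (6.23 to 13.8). Around the 3′ end of Sesn2, also chosen after its values were seen, the Nsl1 library held 33 reads, 2.18 times the level (1.50 to 3.06). Its TSS held 24 reads, 1.59 times the level (1.02 to 2.36), and these intervals overlapped. Msl1 had 27 reads at the same end, 1.51 times the level (0.996 to 2.20).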
